A study of Danio rerio with 4 samples.

Results

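Ovarian RNA of adult female zebrafish was compared between the 2 libraries whose fish had been exposed to diisobutyl phthalate (DiBP) and the 2 whose fish had not. The DiBP side held the library exposed to DiBP alone and the library exposed to both phthalates (combined). The other side held the untreated control and the library exposed to dibutyl phthalate (DBP) alone. All 4 groups were wild-type fish of the AB strain, 5 months old, and the exposures lasted 30 days; each group had 1 library. Neither the doses nor the number of fish behind a library is stated in the labels. Of 49610 rows in each expression table, 35066 carried an Ensembl gene identifier. The comparison used the 12603 of these whose 4 libraries averaged 1 FPKM or more. FPKM is a level corrected for gene length and depth; no header or label names the unit, and it was read from the values.

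DBP and DiBP are isomeric esters of phthalic acid that differ in the branching of their butyl chains. Both are plasticizers, and in mammals phthalates of this kind are known for effects on the gonads and on steroid hormones. The zebrafish ovary holds oocytes of all stages at once. Each oocyte is surrounded by granulosa and theca cells, which make its steroid hormones and support its growth. Growing oocytes store maternal RNA and make egg coat (zona pellucida) proteins.

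The design crosses the presence of DiBP with that of DBP and has no replicate of any group. The spread within a side therefore contains the DBP difference, and p-values measure only the spread among these 4 libraries. An exact permutation test of 2 libraries against 2 cannot go below p = 0.333, two-sided. The column headers of the DiBP and combined tables (T05 and T07) follow another naming pattern than those of the control and DBP tables (CK1 and B1). What the headers mark is not given, so anything that goes with them cannot be told apart from DiBP. No read totals were in the tables. The commonest ratio between the libraries' lowest values gave an estimated depth of 1.05, 0.914 and 1.021 times that of the control in the DBP, DiBP and combined libraries. In whole-ovary RNA, fewer cells of a type and less RNA per cell cannot be told apart.

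With limma on log2(FPKM + 1), 0 of 12603 genes passed an adjusted p of 0.05. The lowest adjusted p was 0.27, and 477 genes (3.78%) had an unadjusted p below 0.05 in limma, 170 of them higher (1.35%) and 307 lower (2.44%) with DiBP. What follows is accordingly a description of levels in single libraries. Both DiBP libraries lay at least 2-fold above both others, on the log2(FPKM + 1) scale, for 58 genes, which is 0.46% of those measured. They lay at least 2-fold below for 45 genes (0.357%), which makes 103 genes (0.817%) in all. Without a minimum gap, the sides did not overlap for 1012 genes with DiBP higher (8.03%) and 2662 with DiBP lower (21.1%), together 29.2%. Higher genes were thus 27.5% of those that did not overlap, and 44.1% after median-of-ratios scaling. The same counts for DBP, as DBP and combined against control and DiBP, were 33 genes higher (0.262%) and 9 lower (0.0714%) by at least 2-fold. Without a minimum gap they were 1417 (11.2%) and 1352 (10.7%).

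The gene with the widest gap on the higher side was CHRNB3, a subunit of a neuronal acetylcholine receptor. It stood at 0.235 FPKM in the control, 0.0948 with DBP, 10.999 with DiBP and 19.6 in the combined library. It lies outside the rule for named genes because its symbol is carried by more than 1 row, and it was chosen after its values were seen. Its log2 difference was 3.76 ± 0.34 (SE; limma adjusted p = 0.27).

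Among the higher genes named by rule, hsp70l, a heat-inducible cytosolic chaperone of the Hsp70 family, had the widest gap. Its level was 5.00 FPKM in the control, 0.295 with DBP, 30.6 with DiBP and 41.4 in the combined library. Both DiBP libraries were above both others, and the DBP library was the lowest by far. The log2 difference of the sides was 3.71 ± 0.72 (SE; limma adjusted p = 0.55). DBP alone was below the control, and the combined library exceeded DBP by 5.03 on the log2 scale.

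Another Hsp70 gene, hsp70.3, stood at 12.9 FPKM in the control, 1.82 with DBP, 28.2 with DiBP and 23.8 in the combined library. hsp70.1 was at 7.67, 2.07, 21.5 and 21.5 FPKM in the same order. In both, as in hsp70l, DBP was lowest and the DiBP libraries were on top, though hsp70.3 had a gap of 0.84, under 2-fold. The row of hsp70.1 has exactly the values of a row named HSPA2, and these genes are near-identical in sequence, so how reads were divided among them is uncertain.

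The rule for named genes takes the 14 widest gaps, and with it come some genes whose gap is under 2-fold. JUN, a subunit of the AP-1 factor that is switched on early by many stimuli, had a gap of 1.06 and stood at 4.20 FPKM in the control, 1.13 with DBP, 14.9 with DiBP and 9.85 in the combined library. Its log2 difference was 1.98 ± 0.48 (SE; limma adjusted p = 0.76). HES1, a repressor that acts downstream of Notch, was at 1.30 and 2.05 FPKM without DiBP and at 4.99 and 11.03 FPKM with it, a gap of 0.97. SP2, a GC-box binding factor, was at 3.91 and 4.06 against 9.50 and 8.34 FPKM, a gap of 0.88. In each of these genes the sides did not overlap, but HES1 and SP2 are not among the 58. TNRC6A, which in mammals works with Argonaute proteins in microRNA silencing, was at 1.204 FPKM in the control, 0.484 with DBP, 6.38 with DiBP and 6.95 in the combined library.

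TM2D3, whose product is a membrane protein, had a gap of 0.87 and is not among the 58 either. It stood at 43.7 FPKM in the control, 47.4 with DBP, 92.2 with DiBP and 87.6 in the combined library. Its difference of 0.97 ± 0.20 (SE, log2) was close to the same in both DBP backgrounds, at 1.06 and 0.87. nme2b.2, of the nucleoside diphosphate kinase family, was at 1.51 and 1.06 FPKM without DiBP and 8.42 and 5.75 FPKM with it. bbs12, of the chaperonin-like proteins that assemble the BBSome of cilia, was at 0.550 and 0.402 against 4.44 and 2.21 FPKM. Of the 58 genes on the higher side, 44 (75.9%) had a mean under 5 FPKM, against 34.9% of all measured genes. Only 20 of the 58 carried a gene symbol that is not a clone or noncoding name, and the 58 rows held 49 distinct sets of values.

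On the lower side, NANOS3 had the widest gap. Nanos3 is an RNA-binding protein of germ cells that zebrafish need to maintain oocyte production. The gene stood at 10.6 FPKM in the control and 25.9 with DBP, and was listed at 0 in both DiBP libraries. ADCY8, an adenylyl cyclase that makes cyclic AMP, stood at 15.5 FPKM in the control, 21.9 with DBP, 0.594 with DiBP and 0.578 in the combined library. Its log2 difference of -3.61 ± 0.27 (SE) had an adjusted p of 0.27 in limma. Within each side the levels of ADCY8 were close. The sides were more than 3 log2 units apart, and the gene was chosen for its wide gap.

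GBA3, a cytosolic beta-glucosidase, was at 7.21 and 17.6 FPKM without DiBP, at 0.068 with DiBP alone, and listed at 0 in the combined library. crp5, a member of the C-reactive protein family of pentraxins, was at 13.0 and 5.38 FPKM and listed at 0 in both DiBP libraries; its values are shared with an unnamed row. ftr67, of the fish-specific finTRIM family, stood at 29.8 FPKM in the control, 56.2 with DBP, 1.92 with DiBP and 8.18 in the combined library. As with NANOS3, DBP alone was above the control for GBA3 and ftr67, and for crp5 it was below. A gene listed at 0 may still be expressed below what these tables record.

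Further genes on the lower side encode enzymes and a vesicle tether. urahb, of the family of hydroxyisourate hydrolases in urate breakdown, was at 13.1 and 12.3 FPKM without DiBP and at 3.79 and 3.86 FPKM with it, close within each side. Its log2 difference was -1.51 ± 0.22 (SE; limma adjusted p = 0.38). RPUSD1, a pseudouridine synthase, was at 12.9 and 9.75 against 3.48 and 3.53 FPKM. PYCR3, an enzyme of proline synthesis, was at 7.97 and 7.33 against 2.06 and 1.39 FPKM. EXOC8, a subunit of the exocyst that tethers secretory vesicles, was at 23.2 and 13.4 against 4.40 and 4.75 FPKM. In all 4 genes the DBP library lay next to the control and the combined library next to DiBP, which their choice by gap fixes. Of the 45 genes on the lower side, 28 (62.2%) had a mean under 5 FPKM.

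**Figure D1:**
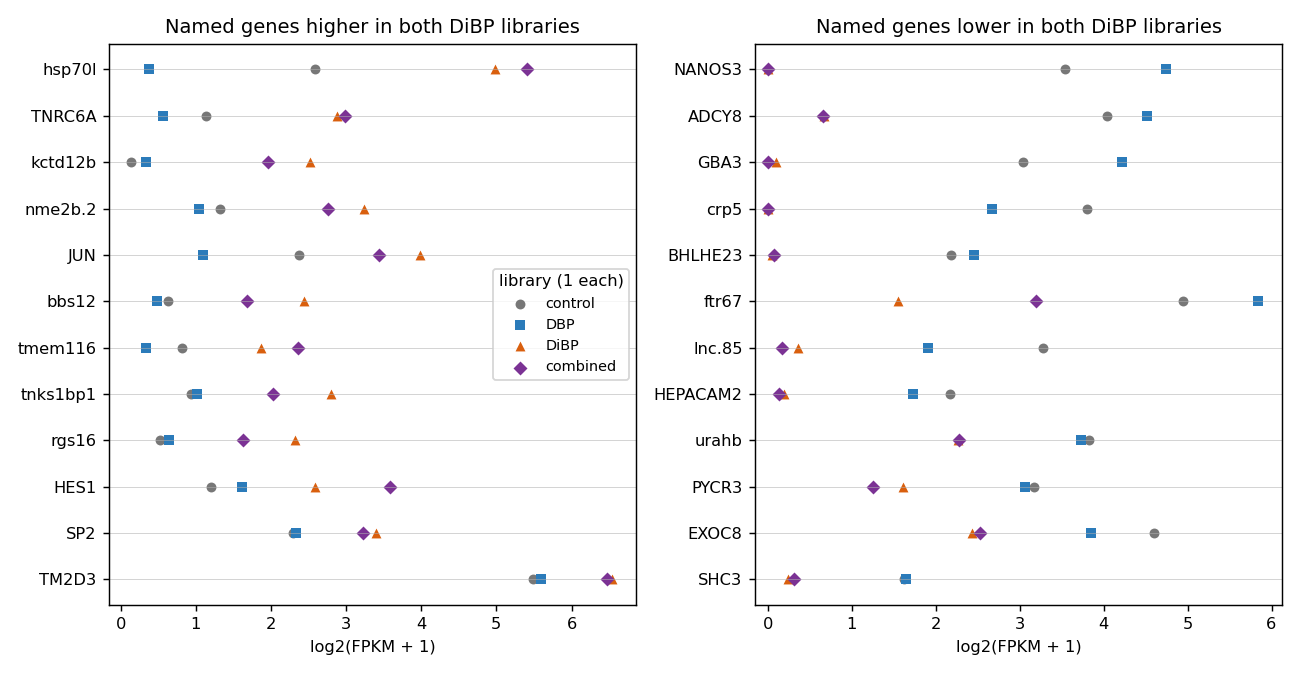
Levels of the 12 named genes with the widest gap on the higher side (left) and lower side (right) in each library, as log2(FPKM + 1); each point is 1 library. For NANOS3 both DiBP libraries sit at 0, and for TM2D3 all 4 points lie above 5.

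At the threshold of a 2-fold gap, tnks1bp1, which in mammals binds a tankyrase, lay just inside on the higher side, at 0.906 FPKM in the control, 1.03 with DBP, 5.97 with DiBP and 3.09 in the combined library. rgs16, a regulator of G protein signalling, lay just outside, at 0.441, 0.561, 4.01 and 2.08 FPKM in the same order. On the lower side METTL15, a mitochondrial ribosomal RNA methyltransferase, lay just inside at 12.7, 12.5, 4.36 and 5.63 FPKM. ISOC2 lay just outside at 4.75, 5.08, 1.89 and 1.86 FPKM. In all 4 genes both DiBP libraries were on the same side of both others, which their choice by gap fixes.

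The DiBP difference was then set out in each DBP background, as DiBP minus control and as combined minus DBP, which share no library. DiBP alone was at least 2-fold above the control for 682 genes (5.41%) and below for 773 (6.13%). The combined library was at least 2-fold above the DBP library for 237 genes (1.88%) and below for 490 (3.89%). Of these, 71 genes were above in both backgrounds, 10.4% of the first list and 30.0% of the second (0.563% of all genes), and 72 were below in both, 9.31% and 14.7% (0.571%). A further 102 genes were at least 2-fold above without DBP and at least 2-fold below with it, and 51 had the reverse order. Across the 12603 genes the correlation of the differences was r = -0.16, and 39.8% had the same sign in both; genes are not independent replicates. For most genes the difference thus had opposite signs in the 2 backgrounds, and the genes with a gap are a small set.

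**Figure D2:**
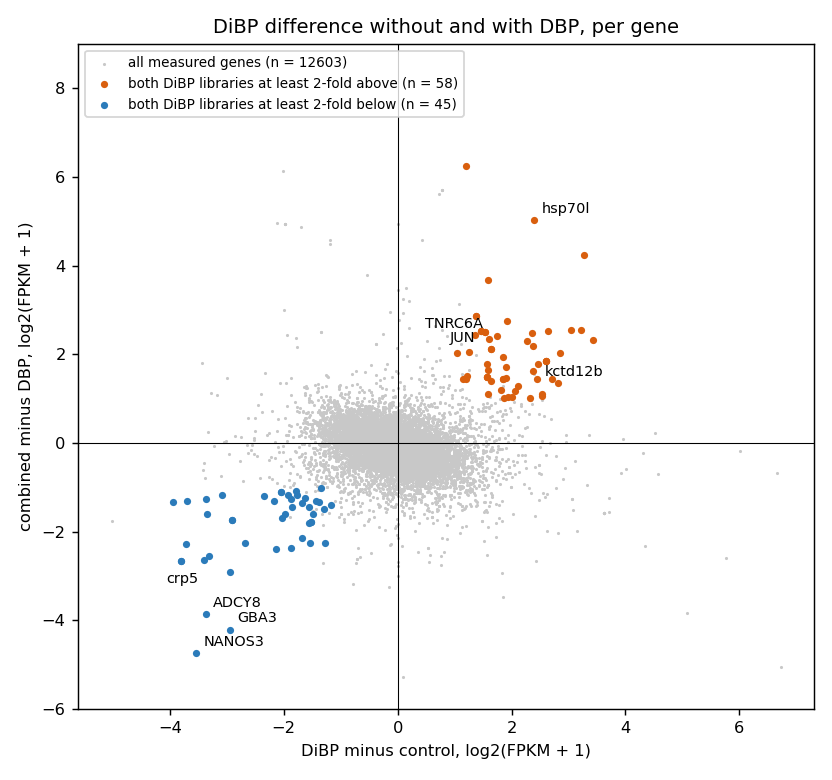
Difference of DiBP from control (horizontal) and of combined from DBP (vertical) for each of 12603 genes, in log2(FPKM + 1). The 58 orange and 45 blue points are the genes at least 2-fold apart between the sides; the grey cloud slopes downward, with r = -0.16.

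Immediate-early genes, which cells switch on within minutes of a stimulus without new protein synthesis, had the highest share of members above among the lists with at least 5 measured members. Of 28 measured members, 12 (42.9%) were above in both DiBP libraries and 2 below, against 8.03% and 21.1% of all genes. The list and its members were chosen with earlier results of these data known, so the share is a description only. The list's median difference was 0.28 on the log2 scale, against -0.09 over all genes. JUNB, another AP-1 subunit, has 2 rows. The row ENSDARG00000104773 stood at 13.1 FPKM in the control, 8.56 with DBP, 40.8 with DiBP and 31.97 in the combined library. The row ENSDARG00000074378 was at 5.23, 3.23, 21.5 and 9.31 FPKM in that order. Both rows, like JUN, were lowest with DBP and highest with DiBP alone.

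IER5, a stimulus-induced nuclear protein, was at 3.17 and 4.11 FPKM without DiBP and at 9.32 and 6.33 with it. For ier2b the DBP and combined libraries were nearly level, at 2.82 and 3.00 FPKM, between 0.722 in the control and 6.08 with DiBP. mcl1a, an anti-apoptotic Bcl-2 relative, was the most abundant member, at 814 FPKM in the control, 860 with DBP, 1345 with DiBP and 905 in the combined library. In these members the DiBP library was well above all others, and the combined library only slightly above DBP for ier2b and mcl1a. Over the list the median difference was 0.64 without DBP and 0.10 with it. The 2 members below in both DiBP libraries were GADD45A, a stress-response inhibitor of growth, at 6.10, 17.2, 3.38 and 2.49 FPKM, and NR4A2, an orphan nuclear receptor, at 1.71, 1.81, 1.11 and 0.907 FPKM. NR4A1 went to neither side, at 12.4, 6.32, 1.33 and 6.70 FPKM.

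Another 15 rows of the immediate-early list lay below 1 FPKM on average. In 9 of them both DiBP libraries were above both others, against 13.49% of all genes below that level. FOSB was at 0.235 FPKM in the control, 0.111 with DBP, 2.83 with DiBP and 0.717 in the combined library. egr1 was at 0.231, 0.188, 2.23 and 0.499 FPKM. Both had their highest level with DiBP alone.

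Heat-shock chaperones did not share one direction. Of 25 measured members, 4 were above in both DiBP libraries (hsp70l, hsp70.1, hsp70.3 and hsp90aa1.1) and 10 were below, which is 16% and 40.0% against 8.03% and 21.1% of all genes. The median difference was -0.16, while the mean was 0.14. The sign differs because hsp70l, hsp70.1 and hsp70.3 have the largest differences. After either rescaling to equal totals or by median of ratios, 7 members (28.0%) were below instead of 10. The share of all genes below also fell, to 18.1% with equal totals and 14.8% with median of ratios. HSPA8, the constitutive cytosolic Hsp70, was at 672 FPKM in the control, 499 with DBP, 400 with DiBP and 456 in the combined library. The mitochondrial chaperonin HSPD1 was at 165, 160, 127 and 136 FPKM. For both of these abundant chaperones the DiBP libraries were the lower, by less than 1 log2 unit. hspa1b, also of the Hsp70 family, was at 5.12, 2.26, 1.63 and 1.89 FPKM, with the control apart from the other libraries. Its log2 difference was -0.70, so members of the Hsp70 family lay on both sides.

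**Figure D3:**
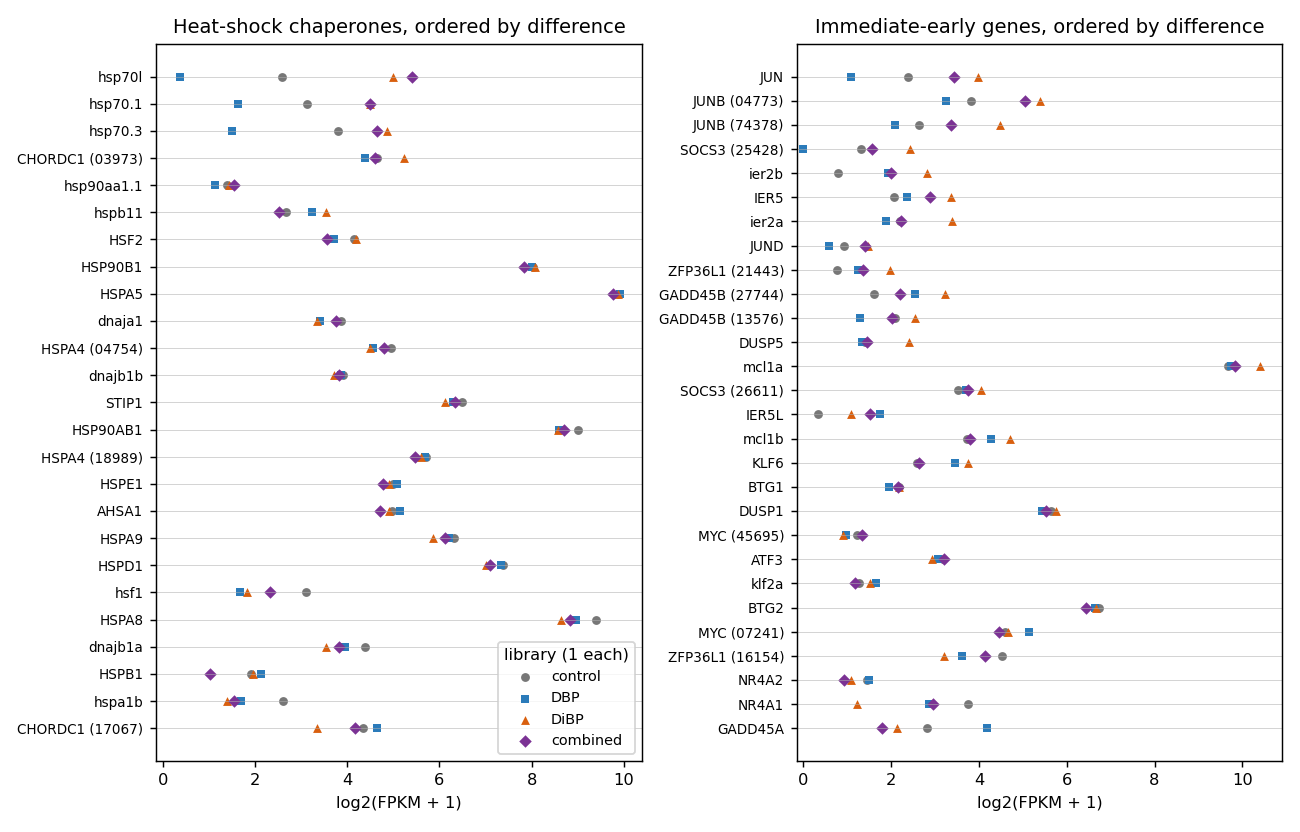
Levels of all 25 measured heat-shock chaperones (left) and 28 measured immediate-early genes (right) in the 4 libraries, as log2(FPKM + 1), ordered by the difference of the sides; digits in brackets are the last digits of the gene identifier where a symbol has several rows. The top 3 chaperones are Hsp70 genes with DBP lowest, while most other chaperones lie close together.

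Ovarian identity was checked with oocyte and egg coat genes, which were abundant in all 4 libraries. Oocyte genes summed to 7181 FPKM in the control, 8760 with DBP, 8660 with DiBP and 5972 in the combined library. Of 37 measured oocyte genes, 32 had a difference below 0, 12 were below in both DiBP libraries and 1 above. Over all genes 63.6% were below 0, 21.1% were below in both DiBP libraries and 8.03% above, against 32.4% and 2.70% of the list. After median-of-ratios scaling 9 oocyte genes (24.3%) were below, against 14.8% of all genes. DDX4 (Vasa), the germ cell RNA helicase, was at 41.6 and 43.4 FPKM without DiBP and at 32.3 and 30.3 with it. zglp1, a GATA-like zinc finger factor of germ cells, was at 541 and 529 against 396 and 419 FPKM. bmp15, an oocyte growth factor of the TGF-beta family, was at 106 and 94.9 against 75.5 and 78.1 FPKM. None of these passed limma's test. The sides did not overlap in any of the 3, which their choice by gap fixes. The member of the piRNA pathway tdrd5 had the other order, at 23.9 and 23.7 against 31.3 and 29.5 FPKM.

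Of 19 measured egg coat genes (15 distinct sets of values), 9 (47.4%) were below in both DiBP libraries and 0 above, against 21.1% and 8.03% of all genes, with a median difference of -0.25. zpd was at 35.8 FPKM in the control, 28.0 with DBP, 17.9 with DiBP and 17.4 in the combined library. zpax4 was at 963, 684, 480 and 658 FPKM. Several zp2 rows share exactly the same values, zp2.1 and zp2.6 among them, so these members are not separate measurements. These rows are nevertheless counted separately among the 9. With rows of identical values collapsed, the list's median was -0.195. After median-of-ratios scaling 7 egg coat genes (36.8%) were below and 1 (5.26%) above, against 14.8% and 11.7% of all genes.

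Of 27 measured antioxidant and Nrf2 genes, 9 (33.3%) were below in both DiBP libraries and 1 (3.70%) above, against 21.1% and 8.03% of all genes, with a median of -0.17. KEAP1, the cytosolic inhibitor of Nrf2, was at 17.4 FPKM in the control, 14.2 with DBP, 8.21 with DiBP and 8.65 in the combined library. GPX8, a peroxidase of the endoplasmic reticulum, was at 136, 59.0, 37.7 and 31.2 FPKM, so that DBP alone already lay well under the control. prdx5, a peroxiredoxin, was at 5.58, 8.48, 3.08 and 3.40 FPKM.

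Of 31 measured genes of PPAR signalling and fatty acid oxidation, 12 (38.7%) were below in both DiBP libraries and 2 (6.45%) above, against 21.1% and 8.03% of all genes. The list's median difference was -0.12, against -0.09 over all genes. A difference below 0 was found in 61.3% of its members, against 63.6% of all genes. After median-of-ratios scaling 9 members (29.0%) were below, against 14.8% of all genes. ACAA2, the last enzyme of mitochondrial beta-oxidation, was at 21.8 and 30.7 FPKM without DiBP and at 10.8 and 14.5 with it. EHHADH, the bifunctional enzyme of peroxisomal beta-oxidation, was at 20.7 and 20.6 against 14.3 and 14.5 FPKM. Of 22 measured cholesterol synthesis genes, 7 (31.8%) were below and 2 (9.09%) above, beside the same shares of all genes. A difference below 0 was found in 63.6% of them, as over all genes. After median-of-ratios scaling 6 (27.3%) were below and 4 (18.2%) above, against 14.8% and 11.7% of all genes. FDFT1 (squalene synthase) was at 10.4 and 6.94 against 3.26 and 4.59 FPKM, while LSS (lanosterol synthase) was at 1.33 and 1.46 against 2.90 and 1.92 FPKM. These 2 enzymes of the same pathway therefore lay in opposite order.

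Steroid synthesis genes had shares near those of all genes. Of 21 measured, 5 (23.8%) were below in both DiBP libraries and 1 (4.76%) above, against 21.1% and 8.03% of all genes. cyp17a2, a 17-alpha-hydroxylase, was at 3.27 and 3.01 FPKM without DiBP and 1.65 and 1.72 with it. CYP17A1 had the other order, at 10.1 and 13.4 against 17.0 and 13.7 FPKM, with a gap of only 0.031. HSD17B4, which in peroxisomes also acts in beta-oxidation, was at 10.3 and 7.49 against 5.83 and 3.71 FPKM. CYP19A1 (aromatase), which makes oestradiol, overlapped between the sides, at 0.677 FPKM in the control, 3.65 with DBP, 4.18 with DiBP and 0.837 in the combined library. Among 10 measured hormone receptors, THRB, a thyroid hormone receptor, was at 1.37 and 1.57 against 0.934 and 0.703 FPKM, and IGF1R at 2.08 and 1.99 against 2.91 and 3.41 FPKM.

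The summed levels of 4 marker lists overlapped between the sides. Leukocyte markers, 11 rows with 7 distinct sets of values, summed to 12.02 FPKM in the control, 101 with DBP, 69.2 with DiBP and 43.6 in the combined library. Granulosa markers, 5 measured, summed to 21.2, 59.3, 47.0 and 27.08 FPKM, and vessel and smooth muscle markers to 8.09, 47.1, 24.2 and 10.3 FPKM. Epithelium and adhesion genes summed to 1616, 4094, 5001 and 2212 FPKM, and epcam, a cell adhesion molecule, was at 86.8, 472, 1147 and 160 FPKM. In each of these sums the control and combined libraries were the lowest. The sums hold only rows that passed the filter, which a member can do through the libraries where it is high. These were 11 of 37 matched leukocyte rows, 5 of 23 granulosa rows and 5 of 26 vessel and smooth muscle rows. Single genes made up much of 2 sums. TAGLN was at 5.47, 33.5, 10.1 and 6.79 FPKM in the vessel sum, and SERPINE2 at 14.7, 26.8, 26.4 and 20.5 FPKM in the granulosa sum. Single members of the epithelium and adhesion list did separate the sides. Of 16 measured, 2 (12.5%) were above in both DiBP libraries and 5 (31.25%) below, against 8.03% and 21.1% of all genes. cldn7b, a tight junction claudin, was at 11.1 and 15.1 FPKM without DiBP and 31.3 and 26.3 with it, and thy1 was at 324 and 191 against 36.6 and 113 FPKM. The granulosa marker FSHR was listed at 0 in the control and under 0.1 FPKM in the others. POSTN, a matrix protein of stroma, was apart between the sides at 4.24 and 8.73 against 0.791 and 1.02 FPKM. Of the 5 measured members of its theca and stroma list, 2 were below in both DiBP libraries and 1 above. The other member below, NR2F2, differed little, at 1.94 and 1.75 against 1.62 and 1.43 FPKM. The member above was CYP17A1, so POSTN does not stand for its list. Whether cell composition had a part in the differences above was not tested.

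**Figure D4:**
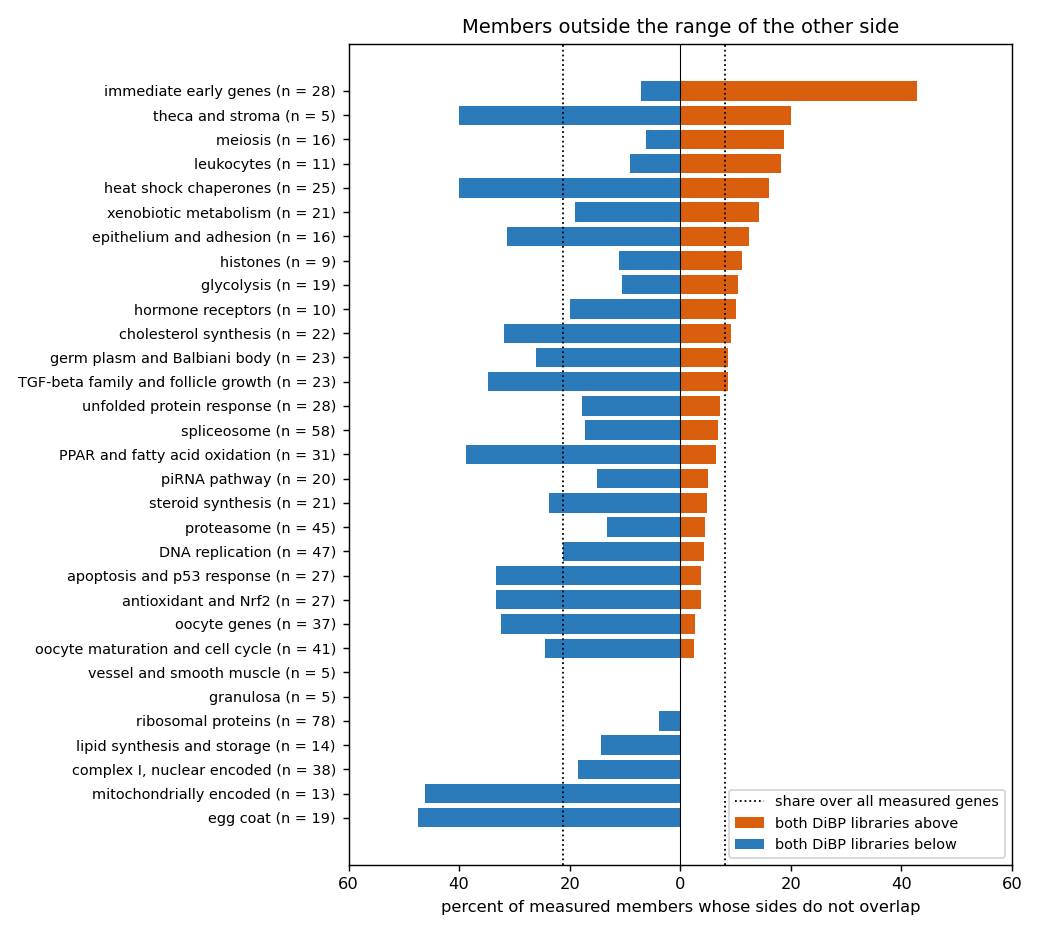
Percent of the measured members of each list with both DiBP libraries above (right, orange) or below (left, blue) both others; dotted lines are the shares over all genes, 8.03% and 21.1%. In the values as deposited, immediate-early genes reach 42.9% on the right and egg coat genes have none there.

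Ribosomal protein genes gave opposite signs in the 2 backgrounds. For 68 of 78 the DiBP library was above the control and the combined library below DBP, with medians of 0.45 and -0.47, so the side difference was near 0. The 13 mitochondrially encoded genes (10 distinct sets of values) had medians of 0.39 and -1.11. For 7 of them the signs were opposite in the same order. The other 6 (46.2%) were below in both DiBP libraries and 0 were above, against 21.1% and 8.03% of all genes. Among these 6, MT-ATP6, MT-CO3 and mt-atp8 share exactly the same values, so they are not separate measurements. For the ribosomal list and those 7 mitochondrial genes, a single side difference does not describe either background.

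**Figure D5:**
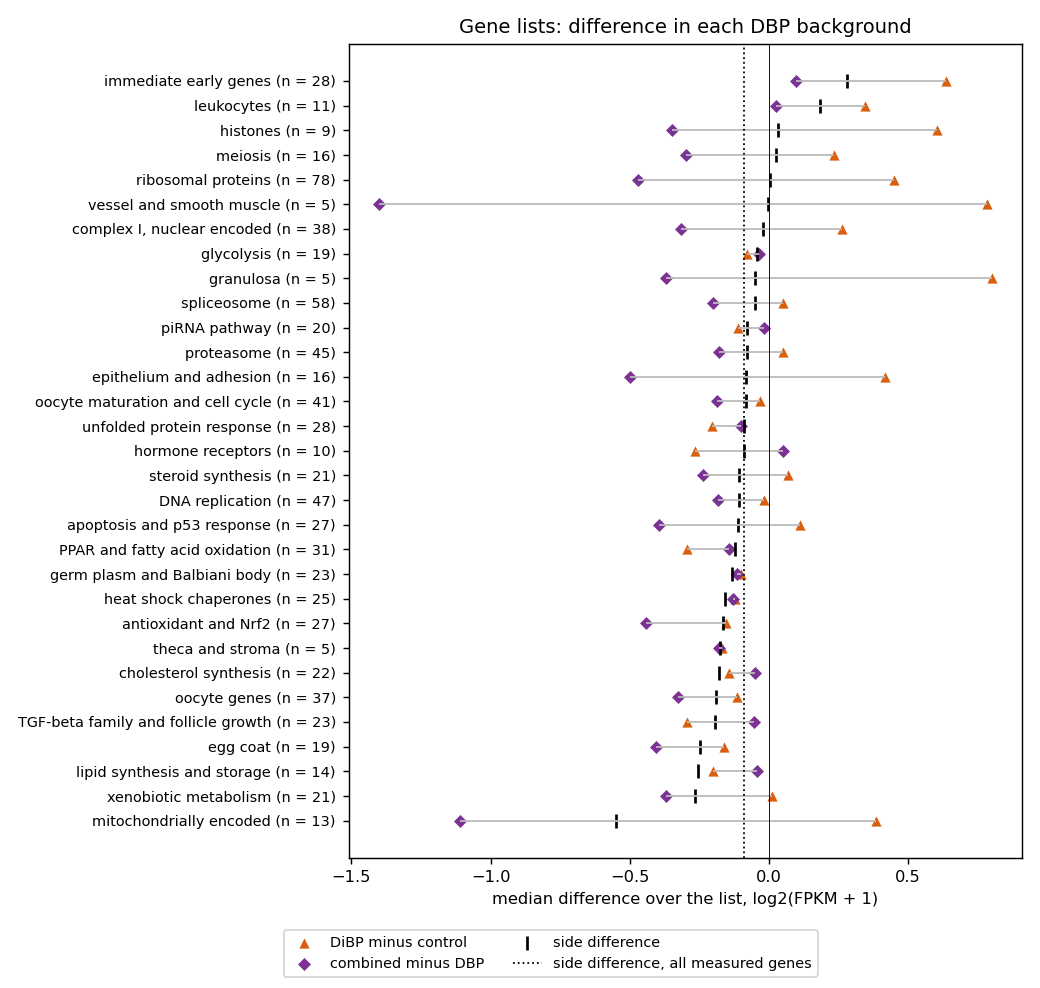
Median difference of each list with at least 5 measured members, as DiBP minus control (triangles), combined minus DBP (diamonds) and between the sides (bars), in log2(FPKM + 1). Immediate-early genes are above 0 in both backgrounds, whereas vessel, mitochondrial and ribosomal lists lie on both sides of 0.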

How the data were processed

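RNA was measured by paired-end Illumina sequencing of 4 ovary libraries, 1 per group. Per the submitters' processing notes, HISAT2, HTSeq 0.6.1 and the GRCz10 build were used; no source says whether strand was used. The authors deposited FPKM values, 1 per gene and library; the unit was read from the values, since neither the labels nor the file headers name it. How the authors normalized them is not recorded, and they were not rescaled here. Genes with a mean of at least 1 FPKM were kept (12603) and analysed as log2(FPKM + 1), so differences of low genes are understated. The design allowed for counts or normalized values. Because the values are normalized, limma 3.58.1 (R 4.3.3) was used, with an intensity trend and no DBP term. Benjamini-Hochberg adjustment was over all kept genes. On simulated data it called 48 of 100 genes changed by 2 log2 units and 84 of 100 changed by 4. It also called 4 of 12403 unchanged genes. Only genes of higher level were changed, with independent noise in each library, so the simulation does not cover low genes. Figures were drawn with matplotlib 3.10.9 and tables made with pandas 2.3.3 and numpy 2.4.6 under Python 3.11.15.

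A gene's gap is the distance between the lower library of one side and the higher of the other. Named genes are the 14 with the widest gap in each direction whose symbol is on 1 row, is no clone name and whose values no other named row shares, up to 3 members per list, all measured heat-shock members, and genes next to the 2-fold threshold; others are given as list examples and were chosen after their values were seen. Symbols were found for 26996 of 35066 Ensembl rows and are printed as the symbol table gives them; list names were also matched with a zebrafish paralog letter dropped. Among kept genes 1503 share all values with another row. Members and lists were chosen with earlier results of these data known. Alternatives were pseudocount, filter, scaling, collapsed rows, the gap, a DBP term, no trend and each library left out. Promoter motifs were not analysed here, and 1 gene that the rule names is not reported here.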

Additional observations from a re-analysis of the deposited data

Results flagged for a closer look

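Lists with at least 5 measured members were looked at again where the median difference had opposite signs in the 2 DBP backgrounds; with 1 library per group the difference between backgrounds was not tested. Values are median log2 differences, first DiBP minus control, then combined minus DBP. Vessel and smooth muscle markers had 0.78 and -1.40, granulosa markers 0.80 and -0.37, and epithelium and adhesion genes 0.42 and -0.50. Mitochondrially encoded genes had 0.39 and -1.11, ribosomal protein genes 0.45 and -0.47, and nuclear-encoded complex I genes 0.26 and -0.32. Histone genes had 0.61 and -0.35, and meiosis genes 0.23 and -0.30. Apoptosis and p53 genes had 0.11 and -0.40, steroid synthesis genes 0.069 and -0.24, and xenobiotic metabolism genes 0.013 and -0.37. Proteasome genes had 0.053 and -0.18 and spliceosome genes 0.0531 and -0.20. Hormone receptors alone had the other order, at -0.27 and 0.052.

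Rows for merged loci, which the comparison did not use, also held genes with a gap. Of 2086 such rows with values of their own, 37 were at least 2-fold higher in both DiBP libraries (1.774%) and 21 lower (1.007%). Both shares were above those of the measured genes, 0.46% and 0.357%. The median difference of the merged rows was 0.052, against -0.088 over the measured genes. Why the merged rows differ was not tested.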

How the results depend on the processing

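No gene passed an adjusted p of 0.05 in limma under any alternative; the lowest adjusted p ranged from 0.0662 with DBP as a term to 0.876 without a filter. The 14 genes named by gap in each direction had the same sign in all 320 alternative values, which their choice as genes without overlap largely fixes; single list members were not recomputed. The counts of 58 higher and 45 lower genes became 14 and 17 with a filter at 5 FPKM, 117 and 146 with a 1.5-fold gap, and 9 and 9 with a 4-fold gap; a pseudocount of 0.1 gave 86 and 89. Without one library the counts were 105 to 200 higher and 139 to 215 lower, since a side of 1 library leaves a looser gap. The correlation between backgrounds was -0.047 with a pseudocount of 0.1 and -0.29 with a filter at 5 FPKM. The share of genes with the same sign was 36.6% with that filter, 43.3% without a filter, 37.6% with equal totals and 37.1% with median-of-ratios scaling. For 8 lists chosen after their medians were seen, the median without one library ranged from 0.11 to 0.70 (immediate-early), -0.26 to -0.093 (heat shock), -0.36 to -0.053 (egg coat), -0.32 to -0.08 (oocyte), -0.24 to -0.16 (antioxidant), -0.20 to -0.02 (steroid synthesis), -0.98 to -0.04 (mitochondrially encoded) and -0.37 to 0.32 (ribosomal). The heat-shock median was -0.12 with a filter at 5 FPKM, -0.081 without a filter, -0.084 with median-of-ratios scaling, and the mean was 0.14. The cause of these shifts was not tested. Higher genes were 56.3% of those 2-fold apart, 49.1% with a pseudocount of 0.1 and 45.2% with a filter at 5 FPKM. Of 35 lists, 4 changed the sign of the median between scalings. No pairing by replicate was possible because the groups share only replicate number 1. The fit with DBP as a term sets DiBP beside control and combined beside DBP, the only blocking the design allows. The p-values printed for single genes come from the fit without that term. Read depth is unknown, so no counting interval can be given for low genes.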

Other observations

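In further lists some members did not overlap between the sides, all by less than 2-fold. Of 41 measured genes of oocyte maturation and the cell cycle, 10 (24.4%) were below in both DiBP libraries and 1 (2.44%) above. The shares of all genes were 21.1% and 8.03%. CKS1B, a cell cycle kinase subunit, was at 49.3 FPKM in the control, 46.7 with DBP, 30.6 with DiBP and 32.9 in the combined library. Of 58 measured spliceosome genes, 10 (17.2%) were below and 4 (6.90%) above, near the shares of all genes. SF3A3, a splicing factor and one of the 4, was at 6.42 and 8.91 FPKM without DiBP and 13.1 and 14.5 with it. Of 28 measured genes of the unfolded protein response, 5 (17.9%) were below and 2 (7.14%) above, near the shares of all genes. P4HB, a protein disulfide isomerase among the 5, was at 102 and 158 against 41.4 and 83.9 FPKM. Of 14 measured genes of lipid synthesis and storage, 2 (14.3%) were below and 0 above, both under the shares of all genes. VLDLR, a lipoprotein receptor, was at 133, 105, 39.5 and 98.7 FPKM, with the DiBP library alone far below the others.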
